A study of Arabidopsis thaliana with 4 samples.

Results

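UPB1 (UPBEAT1, locus AT2G47270) and 4 class III peroxidase genes, PRX52 (AT5G05340), AT3G01190, AT5G17820 and AT4G11290, were followed in Arabidopsis thaliana seedlings that over-express a rice response regulator. The genes were chosen by name, with their genotype differences in these data already known, so those differences are given as a description and carry no test. Each has 1 probe set annotated to it alone, and all 5 were measured on all 4 arrays, among 13356 genes with a probe set of their own. The 2 OsRR6ox samples were whole 10-day-old Col-0 seedlings carrying an OsRR6 over-expression transgene, and the 2 wild type samples were Col-0 seedlings of the same age. Neither group had any treatment, and RNA of each sample was hybridised to its own Affymetrix array. OsRR6 is a rice type-A response regulator of the cytokinin pathway. The sources used here give neither the promoter that drives it nor the number of transgenic lines.

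UPB1 is a basic helix-loop-helix transcription factor that acts in the Arabidopsis root at the transition zone, where cells leave the meristem and start to elongate. It is known to repress peroxidase genes and so to shift the balance between superoxide, which marks dividing cells, and hydrogen peroxide, which marks elongating cells. Class III peroxidases are secreted haem enzymes of the cell wall that use hydrogen peroxide to cross-link phenolics and wall proteins, or make reactive oxygen that loosens the wall. PRX52 is known for its part in lignin formation. Which of the measured peroxidases UPB1 acts on is not marked in the sources used here, and a whole seedling holds the root tip as a small share of its tissue.

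The values are log2 expression as deposited. Array medians lay between 6.71 and 6.81, and array background, taken as the lowest 25% of probe sets, ended between 4.41 and 4.52. The 2 OsRR6ox arrays correlated at 0.992 across probe sets (Pearson), the 2 wild type arrays at 0.989, and arrays of different genotype at 0.976 to 0.980. Bacterial spike-in controls averaged 8.45 and 8.43 on the OsRR6ox arrays, against 8.80 and 9.13 on the wild type arrays. The 3′ minus 5′ gap of the ubiquitin control, which widens as labelled RNA gets shorter, was 1.21 and 1.25 in OsRR6ox, against 1.83 and 1.77 in wild type. The 25S ribosomal control read 6.45 and 7.41 in OsRR6ox, against 7.41 and 9.94 in wild type, and the 5S control 3.73 and 3.74 in OsRR6ox, against 5.59 and 4.88 in wild type. Wild type replicate 2 stood apart from the other 3 arrays on 25S. The part of RNA length, ribosomal RNA and scaling in the differences below was not tested.

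UPB1 was lower in OsRR6ox. It read 7.84 and 8.08 on the OsRR6ox arrays, against 9.16 and 9.45 on the wild type arrays. Both OsRR6ox arrays were below both wild type arrays, with a gap of 1.08 between the groups, which is wider than the distance between replicates in either genotype. The means were 7.96 ± 0.16 in OsRR6ox and 9.30 ± 0.21 in wild type (SD, n = 2 each), a difference of -1.34 with a standard error of 0.17 from the fit across all probe sets. The OsRR6ox level was thus 0.394 times the wild type level. Among 22746 probe sets ordered from the largest fall, UPB1 ranked 142. In bulk tissue a smaller number of cells that express a gene and less RNA per cell cannot be told apart.

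Of the peroxidase genes, AT3G01190 moved in the same direction as UPB1. It read 6.63 and 6.76 in OsRR6ox, against 7.69 and 7.80 in wild type. The replicates of each genotype lay close together, and the groups stood 0.94 apart. The difference was -1.05 (SE 0.13), so the OsRR6ox level was 0.482 times the wild type level.

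AT5G17820 and AT4G11290 had the opposite direction. AT5G17820 read 10.48 and 10.50 in OsRR6ox, against 9.65 and 9.03 in wild type. Its OsRR6ox arrays were nearly identical and lay above both wild type arrays, which differed from each other by 0.62. The difference was 1.15 (SE 0.23), a 2.22-fold higher level in OsRR6ox.

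AT4G11290 read 8.42 and 8.46 in OsRR6ox, against 8.03 and 7.44 in wild type. The groups did not overlap, but the gap between them, 0.39, was narrower than the gap of 0.59 between the wild type arrays. The difference was 0.70 (SE 0.22), or 1.63-fold, and was 0.41 without wild type replicate 2.

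PRX52 showed no common direction. It read 6.06 and 5.70 in OsRR6ox, against 7.61 and 5.06 in wild type. Both OsRR6ox arrays lay between the wild type arrays, which stood 2.55 apart, and only 0.0440% of all probe sets had a wider gap between the wild type arrays. The difference of -0.46 (SE 0.81) therefore rests on wild type replicate 1. Without that array PRX52 differed by 0.82, and without wild type replicate 2 by -1.73.

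**Figure D1:**
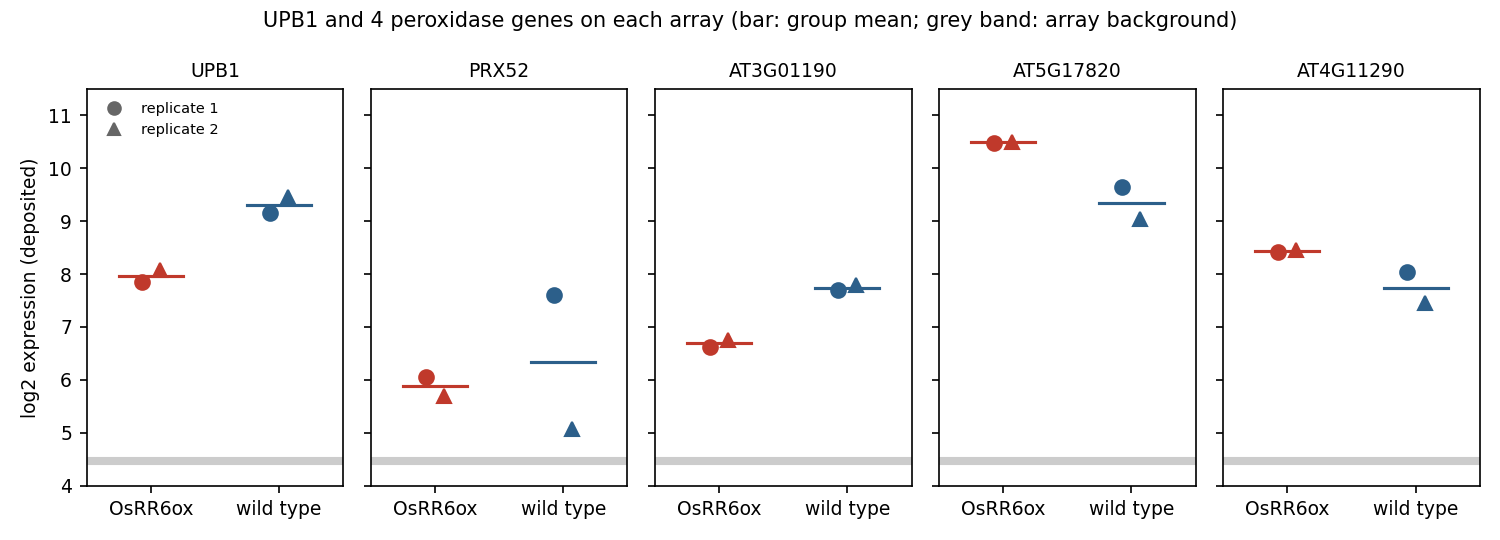
Deposited log2 expression (vertical axis) of UPB1 and 4 peroxidase genes on each array, OsRR6ox in red and wild type in blue, with circles for replicate 1, triangles for replicate 2, bars for group means and a grey band for array background. UPB1 and AT3G01190 are lower and AT5G17820 and AT4G11290 higher on both OsRR6ox arrays, while the wild type arrays of PRX52 stand 2.55 apart; levels of different genes come from different probe sets and are not comparable between panels.

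The values of 4 of the 5 genes kept the genotypes apart, a pattern shared by 46.1% of the tested probe sets. UPB1 and AT3G01190 passed the threshold of the fit (limma, Benjamini-Hochberg adjusted p under 0.05), which 1.30% of all probe sets did. As the genes were chosen with this contrast known, nothing is read from either count. Neither UPB1 nor AT3G01190 passed when OsRR6ox replicate 1 or 2 was left out, although their differences stayed between -1.20 and -1.49 for UPB1 and between -0.99 and -1.12 for AT3G01190 when any of the 4 arrays was left out. With a wild type array left out, UPB1 passed where that was replicate 1 and not where it was replicate 2, and AT3G01190 passed in neither case. AT5G17820 passed without wild type replicate 1, where 1.31% of all probe sets did, and PRX52 without wild type replicate 2, where 2.04% did.

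The level of one gene less that of another on the same array is not touched by centring, which shifts all probe sets of an array alike. Quantile normalization can change it. UPB1 less AT5G17820 was -2.63 and -2.42 in OsRR6ox, against -0.49 and 0.42 in wild type. This gap was thus lower in OsRR6ox by a mean change of -2.49, and the groups did not overlap. UPB1 less AT4G11290 was -0.57 and -0.39 in OsRR6ox, against 1.13 and 2.00 in wild type, a change of -2.05. UPB1 less AT3G01190 changed least, with 1.22 and 1.32 in OsRR6ox against 1.46 and 1.65 in wild type, a change of -0.29. UPB1 less PRX52 was 1.79 and 2.37 in OsRR6ox, against 1.55 and 4.39 in wild type, a change of -0.89, and is the only one of these gaps whose groups overlapped. These gaps are built from the same values as the differences above and add no independent evidence.

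Scaling moved the sizes and, for PRX52, the sign. Centring every array on the 42 spike-in controls shifted all probe sets alike by 0.53, with the median of all probe sets then at 0.49 in place of -0.04. UPB1 differed by -0.82 and AT3G01190 by -0.52 under that centring, AT5G17820 by 1.68 and AT4G11290 by 1.23, and PRX52 by 0.071. AT3G01190 then no longer passed, and AT5G17820 and AT4G11290 did. Under that centring 3013 of all probe sets passed, against 296 as deposited, and 95.0% of the 3013 were rises. The prior variance was then common to all probe sets. Quantile normalization and median centring kept the direction of all 5 genes.

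**Figure D2:**
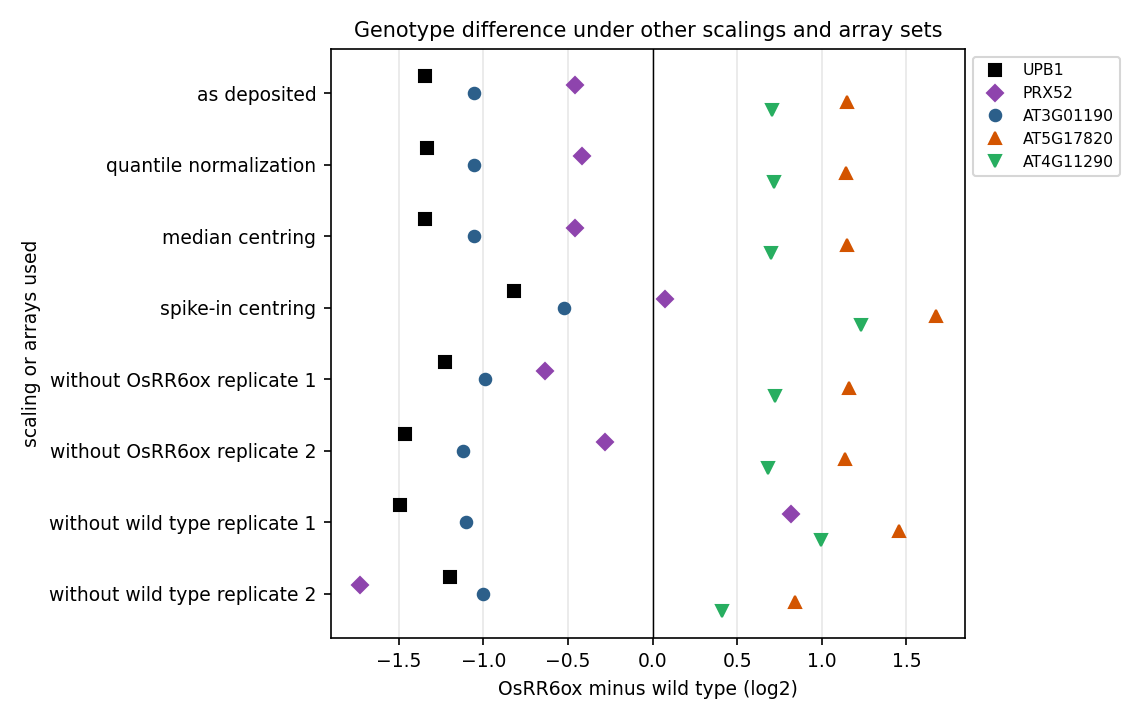
Genotype difference, OsRR6ox minus wild type on the log2 scale (horizontal axis), of UPB1 and 4 peroxidase genes as deposited, under 3 other scalings and with each array left out (rows). UPB1 and AT3G01190 stay below 0 and AT5G17820 and AT4G11290 above 0 in each row drawn, while PRX52 lies above 0 with spike-in centring and at 0.82 without wild type replicate 1.

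The profiles over the 4 arrays were compared by the Euclidean distance between values from which each probe set's own mean had been taken. UPB1 and AT3G01190 lay 0.33 apart, AT5G17820 and AT4G11290 lay 0.45 apart, and every other pair among the 5 was at least 1.82 apart. Against 9565 other probe sets with a single gene that were above background on at least 2 arrays, the nearest to AT5G17820 was EXPA18, an expansin gene of root hairs, at a distance of 0.05. EXPA18 read 8.32 and 8.36 in OsRR6ox, against 7.52 and 6.95 in wild type. OSM34, which encodes an osmotin-like protein, followed at 0.10 and the plant defensin gene PDF2.5 at 0.16. Likeness over 4 arrays is a description of these samples only.

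The genes nearest to UPB1 are known here by locus code, AT5G59650 at 0.10, AT2G45930 at 0.11 and AT1G65180 at 0.14. AT5G59650 lay at array background on both OsRR6ox arrays, so its distance rests partly on floor values. Nearest to AT3G01190 were REV7, a gene for a subunit of DNA polymerase zeta, at 0.09, AT5G19875 at 0.10 and the mitochondrial complex I gene nad4L at 0.10. Nearest to AT4G11290 were AT5G24313 at 0.10, AT5G36290 at 0.10 and AT4G11210 at 0.11. AT4G11210 lay at array background on wild type replicate 2. It lies close to AT4G11290 on the chromosome, with 8 protein-coding genes between them in the TAIR10.1 reference.

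The genes nearest to PRX52 lay further off, AT5G39520 at 0.49, the thionin gene THI2.1 at 0.57 and AT1G62760 at 0.62. The distance is not scaled to the size of a profile's changes, so the wide wild type gap of PRX52 itself tends to enlarge it. All 3 genes shared the wide gap between the wild type arrays. They were picked by their likeness to PRX52, so this sharing is no separate result. AT5G39520 read 8.63 and 8.51 in OsRR6ox, against 9.76 and 7.74 in wild type. AT1G62760 read 6.35 and 6.34 in OsRR6ox, against 7.49 and 4.97 in wild type. THI2.1 read 5.25 and 4.71 in OsRR6ox, against 6.15 and 4.32 in wild type. Its value on wild type replicate 2 lay at array background, so the size of its gap rests partly on a floor value.

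Genes next to the 5 on the chromosome were read as a description of position, a choice made after values had been seen. Of the 30 protein-coding genes within 3 places on either side, 12 were measured, with differences from -1.06 to 0.09. Of these 1 passed (limma), AT3G01210, which lies 2 places from AT3G01190 and fell, beside falls in 0.488% of all probe sets. It read 7.41 and 7.19 in OsRR6ox, against 8.32 and 8.40 in wild type, a difference of -1.06 (limma adjusted p = 0.0455). It did not pass with spike-in centring or with any of the 4 arrays left out, the adjusted p then lying between 0.0730 and 0.261. The measured neighbours of UPB1, AT2G47250, AT2G47280 and AT2G47310, differed by -0.25, 0.09 and -0.32. None of them passed, beside 1.30% of all probe sets that did.

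The rest of the class III peroxidase family gives the setting of these 4 genes. The family was fixed by locus code at 73 genes, of which 55 were measured by a probe set of their own, each by a single probe set. Of the 18 others, 7 are on probe sets shared by several genes, which were not used. Besides the 4 genes above, 51 were thus left, 11 of them at array background on all 4 arrays.

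Among these 51 peroxidase genes, 1 rose and 0 fell (limma, adjusted p under 0.05), beside 0.813% and 0.488% of all probe sets. With an unadjusted p under 0.05 (limma) 10 were higher and 5 lower, which is 19.6% and 9.80%, against 6.75% and 8.23% of all probe sets. A difference of at least 1 in either direction was met in 15.7% of the 51, 4 higher and 4 lower, and in 3.10% of all probe sets. The median difference was 0.08, beside -0.04 for all probe sets, and the median absolute difference was 0.27, beside 0.16. Means were higher in OsRR6ox for 31 genes and lower for 20, beside 9619 and 13127 of all probe sets. After spike-in centring they were higher for 43 and lower for 8, where the median was 0.61 and that of all probe sets 0.49. Without wild type replicate 2 they were higher for 21 and lower for 30. The median was then -0.044, against -0.051 for all probe sets. Both OsRR6ox arrays were above both wild type arrays for 15 genes, or 29.4% (18.1% of all probe sets), and below them for 14, or 27.5% (28.0% of all probe sets).

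The gene that rose was AT1G30870. It read 9.92 and 10.07 in OsRR6ox, against 8.23 and 8.10 in wild type. The replicates of both genotypes lay close together and the groups stood 1.69 apart. The difference was 1.83 (SE 0.13, limma adjusted p = 0.0102), but without OsRR6ox replicate 1 or 2 the adjusted p was 0.0799 and 0.100.

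Further peroxidase genes with small p had higher values in OsRR6ox without passing over all probe sets. AT1G34510 read 9.05 and 9.20 in OsRR6ox, against 7.63 and 6.35 in wild type, a difference of 2.13 (SE 0.42, limma adjusted p = 0.107). Prx37 differed by 1.43, AT4G26010 by 0.98 and AT1G49570 by 0.92, with limma adjusted p-values of 0.112, 0.144 and 0.157. In each of these genes the wild type arrays stood further apart than the OsRR6ox arrays, as they did for AT5G17820 and AT4G11290. With a wild type array left out some of them passed, AT1G34510 without either, and Prx37 and AT3G49960, the last named after its values were seen, without replicate 1.

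Other peroxidase genes had lower values in OsRR6ox, on the side of AT3G01190. AT2G41480, listed in the reference as peroxidase 25, read 5.72 and 5.82 in OsRR6ox, against 7.73 and 7.02 in wild type. The difference was -1.61 (SE 0.25, limma adjusted p = 0.0684), and it passed with either wild type array left out. AT5G15180 read 4.26 and 4.03 in OsRR6ox, at array background, against 6.01 and 5.33 in wild type. Its difference was -1.52 (limma adjusted p = 0.0746), with the OsRR6ox side at the floor of the arrays. AT2G18980 differed by -1.04 (SE 0.25, limma adjusted p = 0.152).

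Of the 4 family members with the highest mean signal 0 passed (limma), beside 1.30% of all probe sets, so nothing is read from that count. PRXR1 read 13.48 and 13.20 in OsRR6ox, against 13.50 and 12.78 in wild type, so the groups overlapped. AT5G64120, listed as peroxidase 71, differed by 0.17, AT5G64100 by 0.19 and AT2G37130 by 0.83.

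**Figure D3:**
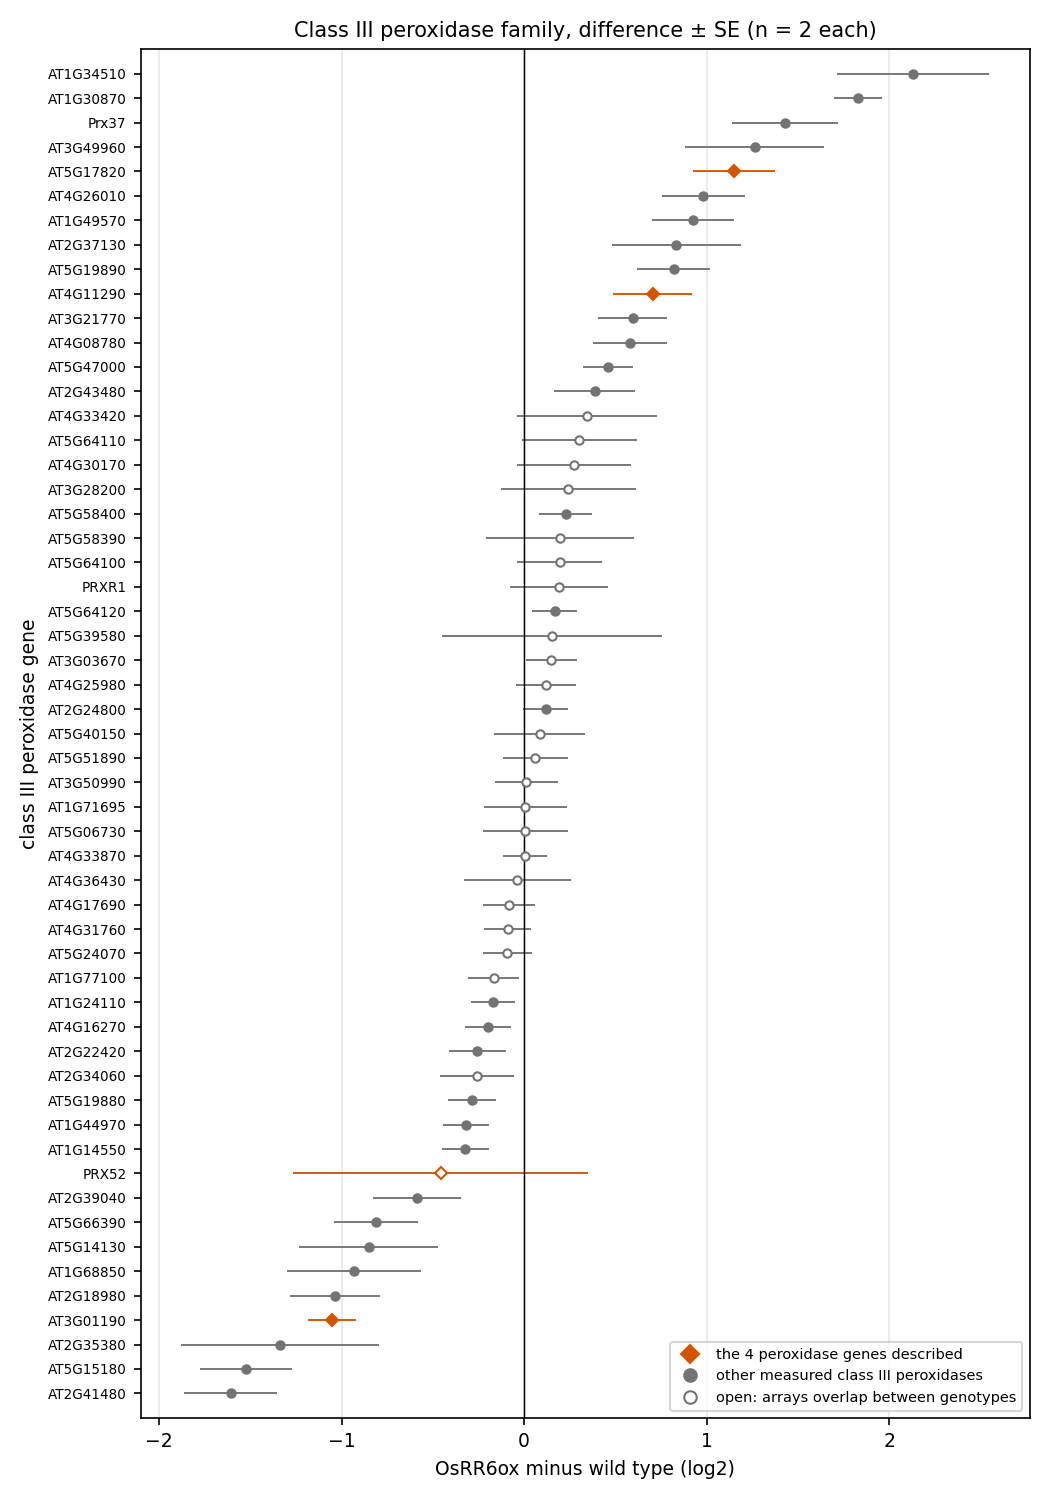
Difference, OsRR6ox minus wild type on the log2 scale (horizontal axis), of the 55 measured class III peroxidase genes, with bars for the standard error of the fit (n = 2 each), diamonds for PRX52, AT3G01190, AT5G17820 and AT4G11290, and open symbols where arrays overlap between genotypes. The family spreads from -1.61 (AT2G41480) to 2.13 (AT1G34510), with AT5G17820 and AT4G11290 among the higher and AT3G01190 among the lower genes.

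The wild type arrays differed from each other across this family. Wild type replicate 1 was above replicate 2 in 38 of the 51 genes, or 74.5%, against 54.9% of all probe sets. In 5 genes it was higher by at least 1, and replicate 2 was higher by that much in 0, beside 215 and 134 of all 22746 probe sets. The gap between the wild type arrays was wider than that between the OsRR6ox arrays in 70.6% of the 51 genes and in 55.2% of all probe sets. Of the 5 genes described, PRX52, AT5G17820 and AT4G11290 were also higher in wild type replicate 1, whereas UPB1 and AT3G01190 were lower there by 0.29 and 0.10.

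Which peroxidases passed changed with the wild type array left out. Without wild type replicate 1, 4 of the 51 rose and 1 fell, where 0.787% and 0.523% of all probe sets did. Without wild type replicate 2, 2 rose and 5 fell, where 0.954% and 1.09% of all probe sets did, so calls over all probe sets held more falls there too. Without OsRR6ox replicate 1 or 2, 0 passed (limma), with an unadjusted p under 0.05 in 12 in either case. Of all probe sets, 0.224% passed without OsRR6ox replicate 1 and 0.198% without OsRR6ox replicate 2, and 10.3% and 9.16% had an unadjusted p under 0.05. Among the 5 that fell without wild type replicate 2 were AT2G35380, AT1G68850 and AT5G14130, named here after their values were seen, whose wild type replicate 1 stood at least 1 above replicate 2.

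**Figure D4:**
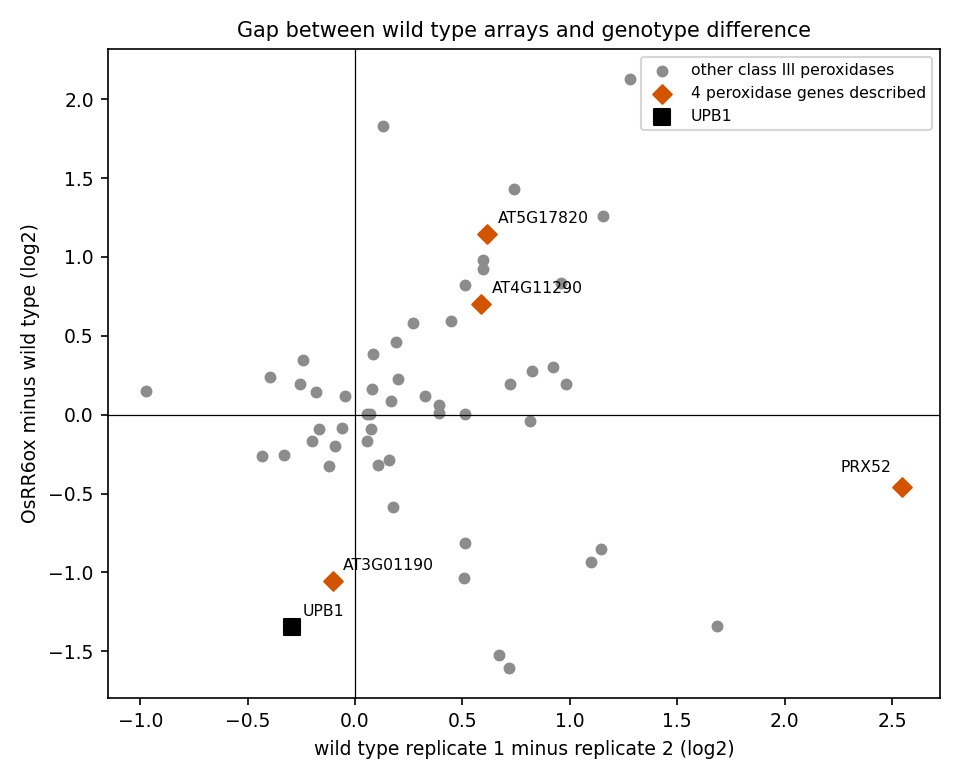
Gap between the wild type arrays, replicate 1 minus replicate 2 (horizontal axis, log2), against the genotype difference, OsRR6ox minus wild type (vertical axis, log2), for UPB1 (square), 4 peroxidase genes (diamonds) and the other 51 measured class III peroxidase genes (circles). Most peroxidases lie to the right of 0, with PRX52 farthest at 2.55, while UPB1 and AT3G01190 lie just left of 0.

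Other genes of reactive oxygen balance were measured in small numbers. NADPH oxidases make the superoxide from which wall hydrogen peroxide derives. Of 10, 3 were measured and 0 passed (limma), AT4G11230 at 0.33, AT4G25090 at 0.18 and AT1G19230 at 0.08. An unadjusted p under 0.05 (limma) was met by 0 of them, beside 15.0% of all probe sets. The signal of AT4G11230 did not exceed background on any array. Of 18 superoxide dismutase, catalase and ascorbate peroxidase genes, the stromal and thylakoid ascorbate peroxidase genes SAPX and TAPX were measured, and 0 passed (limma). An unadjusted p under 0.05 (limma) was met by 1 of these, beside 15.0% of all probe sets. SAPX read 8.56 and 8.57 in OsRR6ox, against 9.27 and 9.50 in wild type, a difference of -0.82 (limma adjusted p = 0.0774). TAPX differed by -0.17.

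Genes of the root meristem and transition zone were nearly unmeasured by a probe set of their own. Of 18, only BBM, an AP2 factor of the meristem, and GH3.17, an auxin-conjugating enzyme gene, were measured. BBM, whose signal did not exceed background on any array, differed by -0.23 and GH3.17 by -0.08. Neither passed (limma), and 0 had an unadjusted p under 0.05, beside 15.0% of all probe sets. Of 14 other small bHLH genes 0 were measured. Of 20 genes of monolignol synthesis, which supplies the substrates that peroxidases polymerise to lignin, and laccases, 2 were measured and 0 passed (limma). An unadjusted p under 0.05 (limma) was met by 1 of these, beside 15.0% of all probe sets. CCR2 differed by -0.74 (limma adjusted p = 0.0771) and HCT by -0.17.

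Markers of root cells stood beside the peroxidases as follows. Of 13 root hair and epidermis markers, the expansin genes EXPA7 and EXPA18 were measured, and 1 rose, beside 0.813% of all probe sets. EXPA7 read 8.30 and 8.63 in OsRR6ox, against 7.18 and 6.96 in wild type, a difference of 1.39 (SE 0.17, limma adjusted p = 0.0392). EXPA18 differed by 1.11 (limma adjusted p = 0.103). EXPA7 lost the threshold without OsRR6ox replicate 1, OsRR6ox replicate 2 or wild type replicate 2, at limma adjusted p-values of 0.128, 0.200 and 0.0565. The summed linear signal of these 2 markers was 635 and 724 in OsRR6ox, against 329 and 248 in wild type.

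Of 9 Casparian strip genes, which mark the endodermis, 2 were measured and 0 passed (limma). An unadjusted p under 0.05 (limma) was met by 1 of these, beside 15.0% of all probe sets. GSO1, a receptor kinase of barrier formation, differed by -0.52 and AT1G61590 by 0.10, and their summed linear signal was 185 and 253 in OsRR6ox, against 272 and 219 in wild type. Of 6 root-abundant markers only the beta-glucosidase gene PYK10 was measured, at 12.71 and 12.84 in OsRR6ox, against 12.96 and 13.00 in wild type, a difference of -0.21 that did not pass. Its linear signal was 6711 and 7327 in OsRR6ox, against 7993 and 8206 in wild type. Of 8 leaf photosynthesis markers 0 were measured by a probe set of their own, so the share of root in each sample was not gauged against leaf. The part of cell proportions in the differences of the 5 genes was not tested.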

How the data were processed

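Total RNA of 4 samples, 2 OsRR6ox and 2 wild type, was isolated with Trizol, and biotin was incorporated with Affymetrix's 3′ IVT protocol, per the labels' protocols. The authors deposited log2 expression values for 22810 probe sets. The submitters' processing notes name R 3.4.0. How background, probe summaries and scaling were handled is not stated in the sources used here. The samples are labelled biological replicates, and no label says whether they were grown apart, so p-values reflect only the spread among these 4 arrays. The 64 array controls stayed out of the tests, which left 22746 probe sets. Names came from the platform annotation, updated through gene identifiers to TAIR10.1. That annotation gives exactly 1 gene to 13513 of them, more than 1 to 503, and leaves 8730 unnamed here. Genotypes were compared with limma 3.58.1 in R 4.3.3 (lmFit, eBayes, two-sided), with Benjamini-Hochberg adjustment over all 22746 at a threshold of 0.05. Standard errors are the moderated ones of that fit, with 3.17 prior degrees of freedom. The number of arrays limits the precision.

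The 5 genes and all lists were chosen with earlier results of these data known. Lists were fixed by locus code, and a gene with several probe sets stood by the one with the highest mean. Named were all 5 genes, of each list the genes that passed and the 4 with the smallest p, of the other class III peroxidases the 8 with the smallest p and the 4 with the highest mean, and the 3 nearest profiles of each of the 5 genes. Alternatives were other scalings, leaving out dim probe sets, another variance model, the replicate number as a block and leaving out each array.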

Additional observations from a re-analysis of the deposited data

How the results depend on the processing

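With 2 arrays per genotype, calls moved with single arrays. Leaving out each array in turn gave 45 to 465 called probe sets, against 296 with all arrays, and 0 to 7 of the 51 other class III peroxidases, against 1. It gave differences of -1.49 to -1.20 for UPB1, -1.73 to 0.82 for PRX52, -1.12 to -0.99 for AT3G01190, 0.84 to 1.46 for AT5G17820 and 0.41 to 1.00 for AT4G11290. The single array left in a genotype is assumed there to vary like the others. Median centring gave 492 called probe sets and 4 called peroxidases, and spike-in centring 3013 and 18. Rises made up 62.5% of all calls as deposited and 95.0% after spike-in centring, where the prior variance was common to all probe sets. Called peroxidases numbered 2 under quantile normalization, 2 without dim probe sets, where 40 of the 51 stayed in, and 3 with an intensity trend in the variance. All called probe sets numbered 370, 362 and 390 in these settings, against 296 as deposited. Counting every probe set of a gene changed nothing. Under spike-in centring UPB1 differed by -0.82, PRX52 by 0.071, AT3G01190 by -0.52, AT5G17820 by 1.68 and AT4G11290 by 1.23, since that centring shifts all probe sets by 0.53.

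The replicate numbers are not said to pair the samples, and the deviations of same-numbered arrays from their group means correlated at 0.26 across probe sets. With the replicate number as a block, 105 probe sets and 0 of the 51 peroxidases passed (limma), and 3721 probe sets and 17 of these peroxidases had an unadjusted p under 0.05. UPB1, AT3G01190, AT1G30870, EXPA7 and AT3G01210 no longer passed.

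Differences of some genes that did not pass changed sign, from -0.52 as deposited in the case of GSO1. The common shift of spike-in centring put them at 0.36 for TAPX, 0.30 for BBM, 0.45 for GH3.17, 0.36 for HCT, 0.0055 for GSO1 and 0.32 for PYK10. Leaving out each array gave -0.10 to 0.49 for AT5G64100, -0.17 to 0.55 for PRXR1, -0.086 to 0.25 for AT1G19230, -0.21 to 0.40 for AT1G61590, -0.41 to 0.080 for TAPX, -0.23 to 0.072 for GH3.17 and -0.43 to 0.097 for HCT. The cause of the changes with arrays left out was not tested. AT5G15180 in OsRR6ox, and BBM and AT4G11230 in both genotypes, lay at array background, which limits their differences.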
